A study of Drosophila melanogaster with 2 samples.

Results

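The aminoacyl-tRNA synthetase genes are the protein-coding genes whose symbol is a three-letter amino acid code, or a pair of joined codes, followed by RS or RS-m, with alpha- or beta- in front of the symbols of the phenylalanine enzyme subunits. The annotation held 35 such genes among 13968 protein-coding genes on the chromosome arms. Of these, 20 had no -m ending and are called cytoplasmic here, and 15 ended in -m and are called mitochondrial. Chromatin immunoprecipitation and sequencing (ChIP-seq) had been carried out on 2 biological replicates of Drosophila melanogaster that carried a CG17328 fusion with enhanced green fluorescent protein, with an antibody to that protein. CG17328 encodes a zinc-finger protein. Both samples were whole embryos of the strain CG17328-GFP, collected at 0 to 24 h and sheared by sonication, so all embryonic tissues and stages were mixed, and they formed 1 group. No library without the tagged protein was analysed here, so whether any peak depends on CG17328 was not tested. In whole embryos, occupancy in few cells and weak occupancy in many cannot be told apart, and the read depth behind the peaks is unknown.

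Aminoacyl-tRNA synthetases join each amino acid to its transfer RNA, the step that fixes the meaning of the genetic code. The cytoplasm and the mitochondrion translate separately, and many of the enzymes of the mitochondrion are made from nuclear genes of their own. Some animal genes encode both forms, so a symbol without -m does not show that the enzyme is absent from mitochondria. GluProRS encodes a fused enzyme for glutamate and proline. In animal cells several of the cytoplasmic enzymes are held in a multi-synthetase complex by scaffold proteins such as AIMP1, AIMP2 and AIMP3.

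A promoter peak was a peak whose summit lay within 500 bp of an annotated start site of the gene. In the series-level list that the authors call conservative, 11 of 35 synthetase genes (31.4%) had one, against 20.1% of all 13968 protein-coding genes. Among the cytoplasmic enzymes these were 9 of 20 (45.0%, Wilson 95% interval 25.8 to 65.8%), and among the mitochondrial enzymes 2 of 15 (13.3%, interval 3.74 to 37.9%). The intervals overlap, cover counting error over genes only, and treat as independent genes that are not replicates, so no test was made between the classes. The cytoplasmic genes were GluProRS, IleRS, SerRS, ThrRS, AsnRS, ValRS, ArgRS, AlaRS and AspRS, and the mitochondrial genes ProRS-m and ArgRS-m.

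The sequences at 6 of these summits are shown because they span the strongest sites of the family, both mitochondrial sites, and the range of base composition. Each is the gene's own strand of the dm6 assembly, 50 bp on either side of the summit, 5′ to 3′, read from the RefSeq copy, with any searched word in capitals. The capitals mark TATAAA or its reverse complement at SerRS, ThrRS and ProRS-m, the reverse complement of TATTTTAA at ProRS-m, and GAGAG at ArgRS-m, where overlapping matches run together. No searched word was in the windows of GluProRS and IleRS.
GluProRS (chr3R:23958470-23958570, minus strand): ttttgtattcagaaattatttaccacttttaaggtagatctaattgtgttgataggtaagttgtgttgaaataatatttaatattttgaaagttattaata
IleRS (chr3L:22288461-22288561, plus strand): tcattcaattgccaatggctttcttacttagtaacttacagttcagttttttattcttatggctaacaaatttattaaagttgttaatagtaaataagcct
SerRS (chr2L:3037353-3037453, minus strand): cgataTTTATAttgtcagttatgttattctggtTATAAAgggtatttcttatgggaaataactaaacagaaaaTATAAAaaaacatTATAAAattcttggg
ThrRS (chr2L:12103524-12103624, plus strand): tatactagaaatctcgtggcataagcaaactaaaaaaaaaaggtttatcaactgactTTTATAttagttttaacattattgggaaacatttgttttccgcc
ProRS-m (chr3L:2651972-2652072, minus strand): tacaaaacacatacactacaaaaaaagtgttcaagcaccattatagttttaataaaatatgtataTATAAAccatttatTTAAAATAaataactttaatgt
ArgRS-m (chr3R:7886823-7886923, plus strand): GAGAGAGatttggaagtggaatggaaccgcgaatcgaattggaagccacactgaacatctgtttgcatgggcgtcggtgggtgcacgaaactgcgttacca

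Among the cytoplasmic enzymes, GluProRS had the peak of highest signal. Its pooled signal, which is the authors' signal value for the peak over both samples, was 385, and it was 175 in replicate 1 and 206 in replicate 2. The peak (3R from 23958429 to 23958665, dm6) ranked 288 of 5807 conservative peaks, within the top 4.96%. IleRS, the enzyme for isoleucine, followed with a pooled signal of 242, with 110 in replicate 1 and 135 in replicate 2 (3L from 22288435 to 22288584). It ranked 689. Both signals were above the median of 94.5 over the conservative list.

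SerRS, the serine enzyme, had a pooled signal of 178, with 81.4 in replicate 1 and 95.8 in replicate 2 (2L from 3037245 to 3037560). ThrRS, the threonine enzyme, had 155, with 54.2 in replicate 1 and 100.7 in replicate 2 (2L from 12103416 to 12103731). AsnRS, the asparagine enzyme, had 106, with 53.8 and 54.0 in replicates 1 and 2 (2L from 19131887 to 19132202). All of these peaks passed the authors' threshold in the own list of each sample as well. ThrRS differed most between the samples among them, and AsnRS least.

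ValRS, the valine enzyme, had 2 separate promoter peaks. The farther peak (2R from 13198241 to 13198556) had a pooled signal of 103, with 54.4 in replicate 1 and 59.0 in replicate 2. The nearer peak (2R from 13198742 to 13199057) had 88.7, with 47.7 in replicate 1 and 45.5 in replicate 2, and passed the threshold of replicate 1 alone. The farther summit lay at -451 bp from the ValRS start site but at -62 bp from that of Kdm4B, a histone demethylase gene (negative positions are upstream).

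The remaining cytoplasmic members had weaker peaks, whose highest ranked between 4370 and 5325 of 5807. ArgRS, the arginine enzyme, had a pooled signal of 67.5, with 36.2 in replicate 1 and 28.7 in replicate 2 (X from 15844183 to 15844498), and was in the own list of replicate 1 alone. AlaRS, the alanine enzyme, had 64.2, with 28.2 in replicate 1 and 41.0 in replicate 2 (2L from 8381700 to 8382015), and was in the own list of replicate 2 alone. A further conservative peak at AlaRS, with a signal of 13.4 and rank 5685, overlapped that one by 112 bp. The highest overlapping peak in each sample was the same for both. Whether the further peak marks a separate site was not tested. AspRS, the aspartate enzyme, had 54.0, with 23.7 in replicate 1 and 40.0 in replicate 2 (2R from 12880011 to 12880326), and was in neither sample's own list.

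Of the mitochondrial members, ProRS-m ranked 2812 and ArgRS-m 4861 of 5807 conservative peaks, the latter among the weaker peaks. ProRS-m, the mitochondrial proline enzyme, had a pooled signal of 96.9, with 35.3 in replicate 1 and 69.3 in replicate 2 (3L from 2651864 to 2652179). It passed the threshold of replicate 2 alone, and its ratio of replicate 2 to replicate 1, at 1.96, was the highest among the members' peaks. ArgRS-m had 60.8, with 27.6 in replicate 1 and 34.5 in replicate 2 (3R from 7886715 to 7887030). It was in neither own list and, like AspRS, not in the other series-level list. With the own list of replicate 1, no mitochondrial member therefore had a promoter peak.

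**Figure D1:**
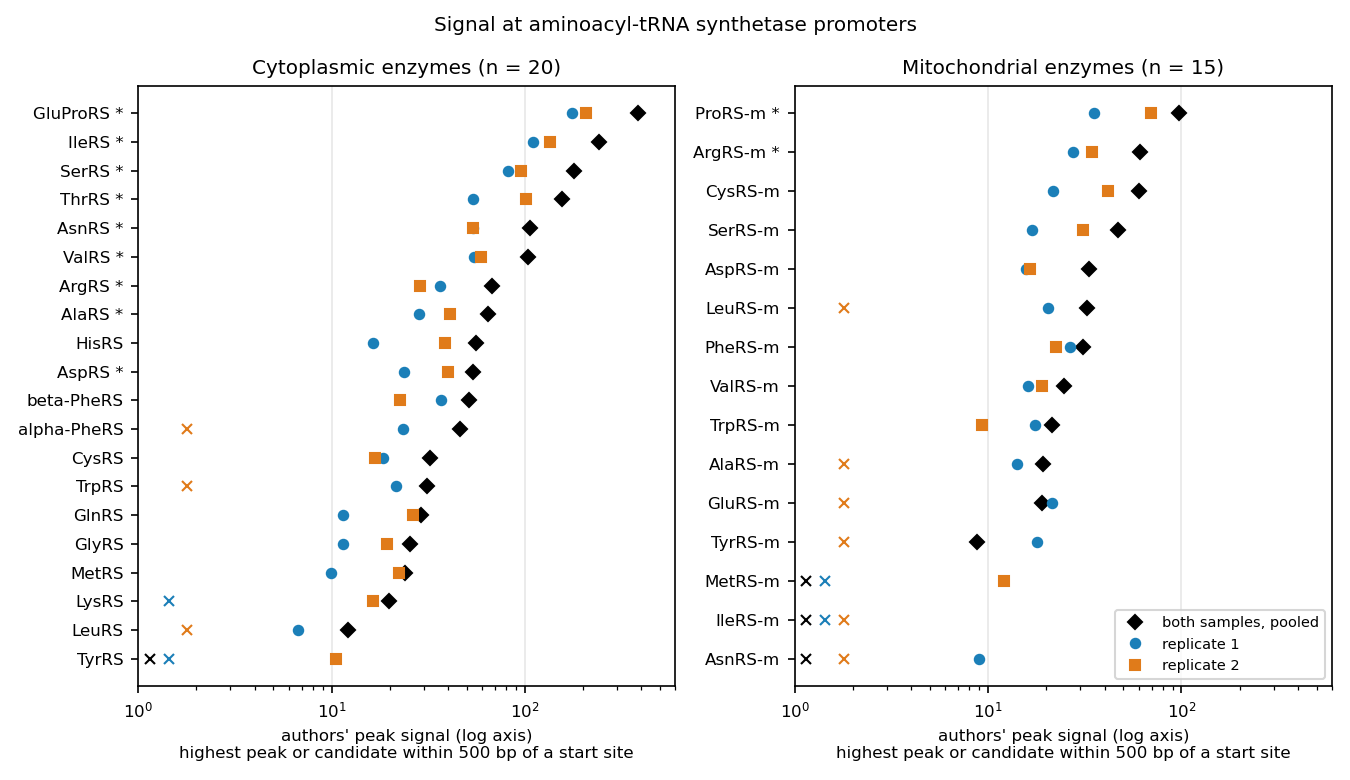
Each row is a gene, with the highest signal within 500 bp of a start site in the ranked lists (log axis) for both samples pooled, replicate 1 and replicate 2. Crosses at the left edge mark a list with no candidate there, and asterisks mark the 11 genes with a conservative promoter peak, from GluProRS at 385 to AspRS at 54.0.

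With each sample peak counted once, replicate 2 gave the higher signal at 10 of 12 members' peaks. The median ratio of replicate 2 to replicate 1 was 1.20. Over all 5751 conservative peaks with a value in both samples, replicate 2 was higher in 71.0% and the median ratio was 1.19. The sources do not say whether the signals of the samples share a scale. The exceptions were ArgRS, with a ratio of 0.791, and the nearer ValRS peak, with 0.954.

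Of the 24 synthetase genes without a conservative promoter peak, 11 were cytoplasmic and 13 mitochondrial. Every peak of the ranked lists, whatever its score, is called a candidate here. The authors' threshold was an IDR (irreproducible discovery rate) of 0.01, a measure that is low where a peak is repeatable between the sets compared. Inside it, the members with the highest values were AspRS at 0.00850, ArgRS-m at 0.00407, ArgRS at 0.00358 and AlaRS at 0.00290. Just outside lay beta-PheRS at 0.0180, CysRS-m at 0.0182, alpha-PheRS at 0.0198 and PheRS-m at 0.0207. The candidate at CysRS-m had a pooled signal of 60.6, close to that of ArgRS-m.

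Among the cytoplasmic enzymes without a peak, HisRS, the histidine enzyme, had the highest candidate. Its pooled signal was 56.0, with 16.4 in replicate 1 and 38.4 in replicate 2, where it passed the threshold of the own list. At beta-PheRS, a subunit of the phenylalanine enzyme, the candidate had 51.4, with 37.0 in replicate 1, where it passed, and 22.6 in replicate 2. The candidate of alpha-PheRS, the partner subunit, had 46.2, with 23.4 in replicate 1 and none within 500 bp in replicate 2. Its pooled summit lay 499 bp downstream of the start site, at the edge of the window. CysRS followed with 32.3. The candidates of TrpRS, GlnRS, GlyRS, MetRS, LysRS and LeuRS were weaker, from 12.1 at LeuRS to 31.0 at TrpRS. TyrRS had no series-level candidate and a weak one of 10.6 in replicate 2.

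Among the mitochondrial enzymes without a peak, CysRS-m was highest, with 21.6 in replicate 1 and 41.8 in replicate 2. SerRS-m had 47.2, with 16.9 in replicate 1 and 31.1 in replicate 2. AspRS-m had 33.4 and LeuRS-m 32.6. PheRS-m, ValRS-m, TrpRS-m, AlaRS-m, GluRS-m and TyrRS-m lay between 8.73 and 31.0. AsnRS-m and MetRS-m had a candidate in a sample's own ranked list only, and IleRS-m had none in any list used.

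With genes lacking a candidate counted as 0, the median highest signal near a start site was 32.6 for all 35 synthetase genes and 26.9 for all protein-coding genes. It was 52.7 for the cytoplasmic and 24.5 for the mitochondrial enzymes. In replicate 1 the cytoplasmic median was 23.6, the mitochondrial 17.5 and that of all protein-coding genes 14.3. In replicate 2 they were 27.4, 12.1 and 14.8. The cytoplasmic median was thus above that of all coding genes in each sample, and the mitochondrial median was above it in replicate 1 and below it in replicate 2. Among the genes with a peak, the median pooled signal was 103 for the 11 synthetase genes and 109.8 for all protein-coding genes.

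The share was also set beside that of all protein-coding genes under each other list and window. In the own list of replicate 1, 8 of 35 synthetase genes (22.9%) had a promoter peak, against 14.2% of all coding genes, and in the own list of replicate 2 they were 9 (25.7%) against 15.8%. A peak in both own lists stood at 6 synthetase genes (17.1%), against 11.7% of all coding genes. The other series-level list gave 9 (25.7%) against 21.0%. With the conservative list and 1196 further peaks past the threshold, 11 genes were counted against 23.3%, and with the 2903 strongest conservative peaks 7 (20%) against 11.7%. A window of 250 bp kept the count at 11, against 16.2%, and one of 1000 bp raised it to 13 (37.1%), against 23.6%, through beta-PheRS and LeuRS-m. Counting any base of a peak within 500 bp gave 11, against 21.3%. Cytoplasmic enzymes lay above all coding genes under all 8 of these alternatives, with shares from 30% to 50%. Mitochondrial enzymes lay below them under each, with shares from 0% to 20%.

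**Figure D2:**
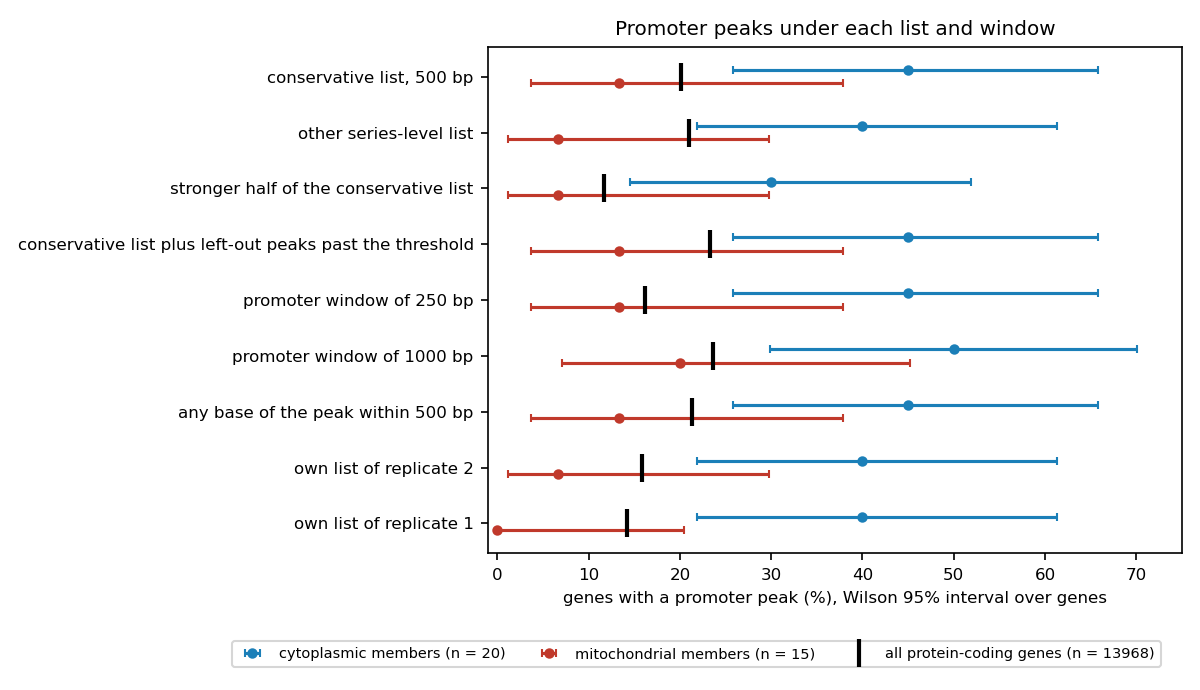
The share of genes with a promoter peak is shown for 20 cytoplasmic enzymes, 15 mitochondrial enzymes and all 13968 protein-coding genes (black bars), by list and window, with Wilson 95% intervals over genes. In the conservative list the shares were 45.0%, 13.3% and 20.1%.

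Enzymes of the same amino acid were then set side by side. Of 15 amino acids with both a cytoplasmic and a mitochondrial gene, 7 had a conservative promoter peak at the cytoplasmic gene alone, 2 at both and 6 at neither, and none at the mitochondrial gene alone. GluProRS counts for both glutamate and proline. The amino acids with both were arginine, with pooled signals of 67.5 at ArgRS and 60.8 at ArgRS-m, and proline, with 385 at GluProRS and 96.9 at ProRS-m. The highest candidate signal was greater at the cytoplasmic gene in 12 of the 15. The opposite held for cysteine (32.3 at CysRS and 60.6 at CysRS-m), leucine (12.1 at LeuRS and 32.6 at LeuRS-m) and tyrosine (none at TyrRS and 8.73 at TyrRS-m). Several of these candidates were poorly repeatable, with an IDR of 0.845 at AlaRS-m, 0.718 at GluRS-m, 0.707 at TrpRS and 0.693 at TrpRS-m. Among the opposite pairs, LeuRS and TyrRS-m each had 0.845. AsnRS-m, IleRS-m, MetRS-m and TyrRS, without a series-level candidate, counted as 0.

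**Figure D3:**
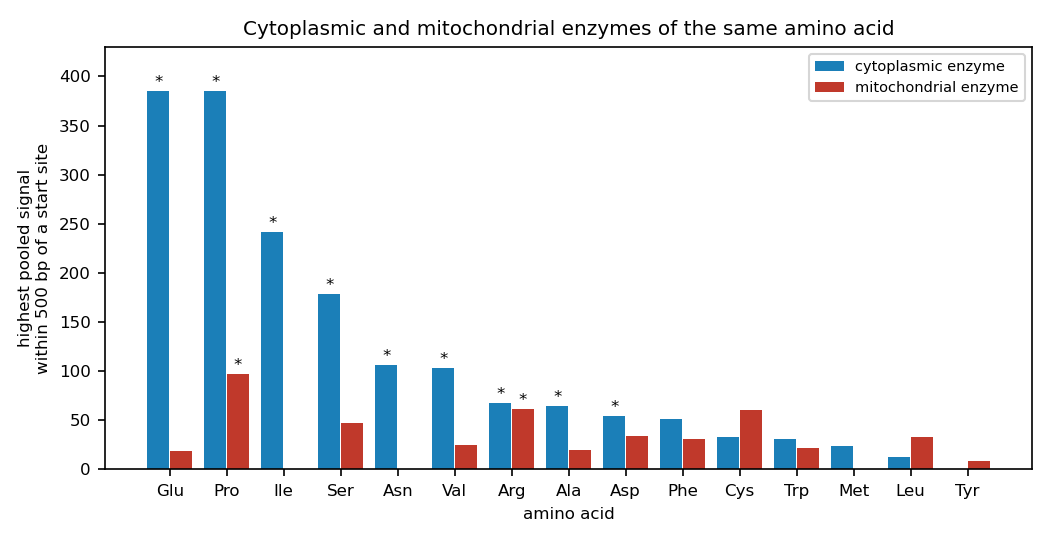
Bars give the highest pooled signal within 500 bp of a start site for the cytoplasmic and the mitochondrial enzyme of 15 amino acids, and asterisks mark conservative promoter peaks. The bar of GluProRS (385) is drawn under both Glu and Pro, and a missing bar means that no candidate was listed.

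Of the members' 13 summits, which include the further AlaRS peak, 12 were upstream of the gene's nearest start site. SerRS had its pooled summit on the start site itself, and the median pooled position was -154 bp. In replicate 1 the SerRS summit lay 28 bp downstream, and in replicate 2 at -2 bp. The AspRS summit, at 12880169, lay inside the gene, which begins at 12877004, upstream of a later start site. It lay at -20 bp in replicate 1 and at -164 bp in replicate 2. The G+C and word windows below are centred on the pooled summits. The nearer ValRS summit, at 13198900, lay past the first base of that gene, 13198850. Over all protein-coding genes, 79.9% of 3158 pairs of a gene and a promoter peak had the summit upstream. GluProRS lay at -129 bp, IleRS at -154 bp, ThrRS at -177 bp and ProRS-m and ArgRS-m both at -172 bp. The positions of both mitochondrial peaks lay within the range of the cytoplasmic ones. By chromosome arm, a promoter peak stood at 4 of 6 synthetase genes on 2L, against 20.2% of all protein-coding genes of that arm. It was 2 of 8 against 20.4% on 2R, 2 of 10 against 21.3% on 3L, 2 of 7 against 21.0% on 3R and 1 of 4 against 17.6% on X, counts too small to compare arms.

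**Figure D4:**
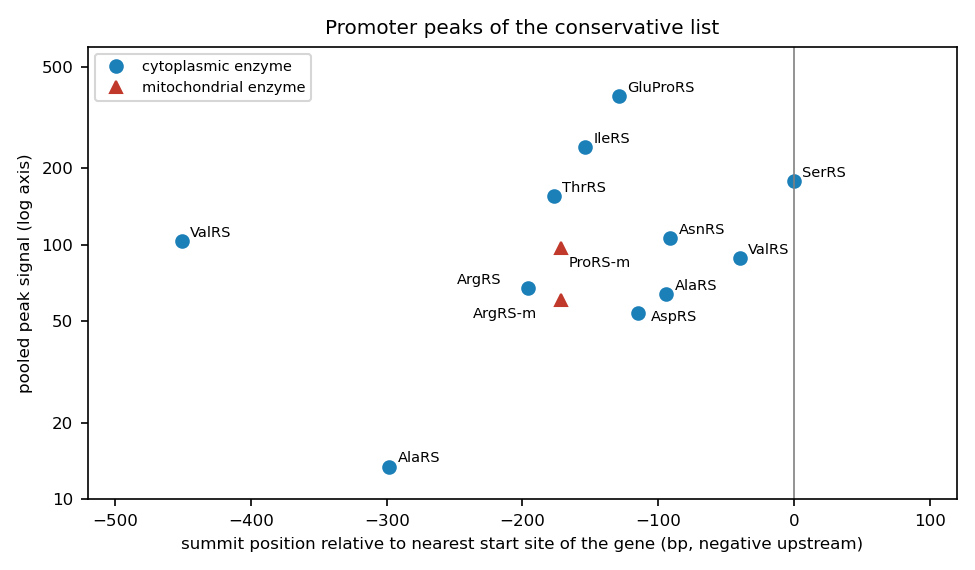
The 13 conservative promoter peaks of 11 genes are placed by summit position relative to the nearest start site of the gene (bp) and by pooled signal (log axis). Only SerRS, at 0 bp, is not upstream of that nearest site, and the lowest point is the further AlaRS peak with 13.4.

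At 10 of the 11 genes a peak was shared with a start site of another protein-coding gene, within 500 bp of the same summit, and such a peak cannot be assigned to either gene. The same held for 53.7% of the 2812 protein-coding genes with a promoter peak, and the difference was not tested. The exception was AlaRS. The pooled GluProRS summit lay at -129 bp from the start site of that gene and at -131 bp from that of AP-1sigma, a clathrin adaptor subunit gene. This was close to the middle of the 260 bp between them. The replicate 2 summit was at the same base, and the replicate 1 summit lay at -161 bp from the GluProRS start site. The IleRS summit lay at -316 bp from the start site of Hem, a gene of the actin-regulating SCAR complex, and the ProRS-m summit lay at -66 bp from those of both Snup, which encodes a nuclear import adaptor, and CG42304. CG17260 had its start site 8 bp from that of SerRS. The other neighbours were Patsas at ThrRS, DCTN6-p27 (a dynactin subunit gene) at AsnRS, CG8578 at ArgRS, CG17816 at ArgRS-m, Nmda1 at AspRS and Kdm4B at the farther ValRS peak.

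The genes were also split by promoter type, a split chosen after the values had been seen. A promoter was called divergent when a protein-coding start site on the opposite strand lay at or up to 500 bp upstream of a start site of the gene. Divergent promoters made up 22 of 35 synthetase genes (62.9%) and 27.3% of all protein-coding genes. Among genes with divergent promoters, 9 of 22 synthetase genes (40.9%) had a peak, against 36.2% of 3815 coding genes. Among the others it was 2 of 13 (15.4%), against 14.1% of 10153 coding genes. Within each promoter type the share of all synthetase genes together was near that of all coding genes. In each type the cytoplasmic share lay above that of all coding genes and the mitochondrial share below. Divergent promoters were found at 15 of 20 cytoplasmic enzymes (75%) and 7 of 15 mitochondrial ones (46.7%). Peaks stood at 7 of those 15 cytoplasmic (46.7%) and at 2 of those 7 mitochondrial genes (28.6%). Without a divergent promoter they stood at 2 of 5 cytoplasmic genes (40%), AlaRS and ValRS, and at 0 of 8 mitochondrial genes. The start sites of ValRS and Kdm4B, on opposite strands, lay 513 bp apart, just past the 500 bp limit. The promoter type of ValRS, and with it the counts by type, thus rests on that limit. The part of promoter type in the difference between the classes was not tested.

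**Figure D5:**
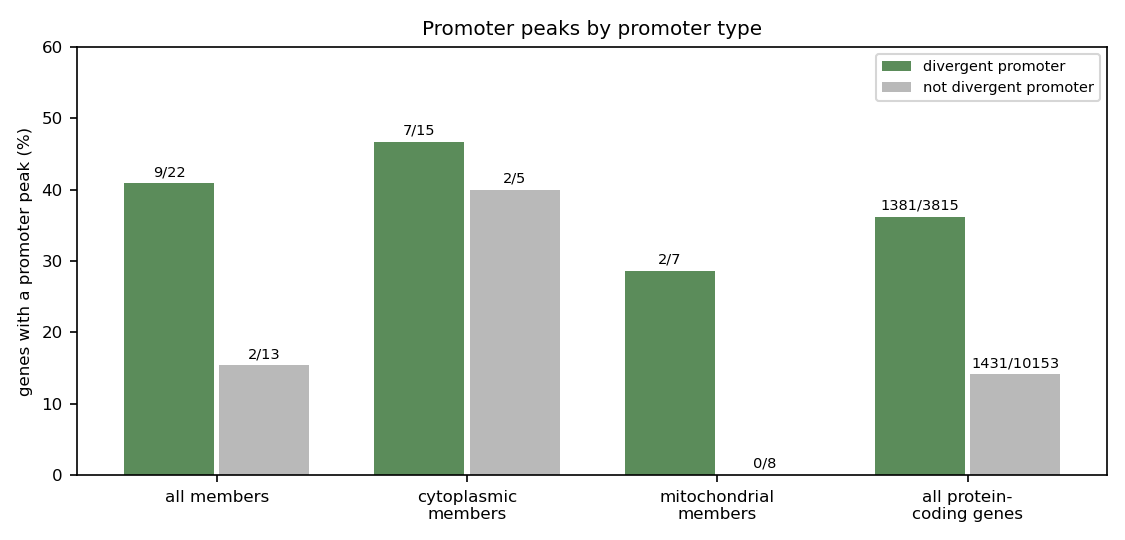
Bars give the share of genes with a conservative promoter peak by promoter type, with counts above them. Synthetase genes reached 40.9% at divergent promoters and 15.4% at others, against 36.2% and 14.1% of all protein-coding genes. ValRS counts as not divergent, with the Kdm4B start site 513 bp away.

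Within 50 bp of the members' summits the mean G+C was 31.8% (SD 11.0 over 13 peaks), against 37.4% (SD 11.6) over 2499 conservative promoter peaks of the series, and the difference was not tested. The 13 peaks include the further AlaRS peak, which may not be a separate site. ProRS-m was lowest at 18.8%, and GluProRS and the stronger AlaRS peak both had 20.8%. ArgRS-m was highest at 51.5%, so the mitochondrial peaks stood at both ends of the range. The further AlaRS peak, at 50.5%, and the nearer ValRS peak, at 44.6%, also lay above the mean of the series.

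Words were searched on both strands within 50 bp of the summits. TATAAA, the TATA box word, was at 5 of 13 members' peaks (AlaRS, AsnRS, ProRS-m, SerRS and ThrRS), against 19.2% of all conservative promoter summits. GAGAG, the word of GAGA factor, was at 2 (ArgRS and ArgRS-m), against 11.3%. TATTTTAA, a word without G or C that was itself chosen from these peaks, was at ProRS-m alone, against 5.36%. TATCGATA (DRE), CACGTG (E-box), TTGCATCA (a composite site of ATF4), GGTCACAC (core of motif 1) and CANCCCTA (motif 7) were in none of these windows, and in between 0.200 and 2.48% of all promoter summits. TATAAA, made of A and T, was at summits of 18.8 to 28.7% G+C, and its count was not compared at equal G+C.

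Over the promoters of all 35 genes, from 250 bp before to 50 bp after the outermost start site, TATCGATA was in 5 (AlaRS, ArgRS, IleRS, TrpRS and PheRS-m), against 9.36% of all protein-coding promoters. TATTTTAA was in 7, of which 6 were cytoplasmic and 1 mitochondrial, against 10.2%. TATAAA was in 19 against 45.9%, GAGAG in 6 against 29.8%, GGTCACAC in 5 against 7.70% and CACGTG in 2 against 4.23%. TTGCATCA and CANCCCTA were in none, against 0.816 and 3.51%.

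Other genes that serve charged transfer RNAs were read from a list of 21 names, of which 20 matched an annotated gene. A conservative promoter peak stood at 5 of 20 (25%), against 20.1% of all protein-coding genes. The highest was at eEF1gamma, a subunit of the exchange factor of the elongation factor that delivers charged tRNA, with a pooled signal of 502 (190 in replicate 1 and 303 in replicate 2). eEF2, the translocation factor, had 230, and eEF1alpha1, the delivery factor itself, had 201. GatA, a subunit of the amidotransferase that makes glutaminyl-tRNA in mitochondria, had 158, and Gcn2, a kinase that senses uncharged tRNA, was the remaining one with 65.8. mEFTu2 and mEFTu1 had candidates of 65.4 and 55.5 and no conservative promoter peak, but each had a promoter peak in the other series-level list. In that list 7 of 20 (35%) had one, against 21.0% of all protein-coding genes. In the own list of replicate 1 it was 4 of 20 (20%), without these genes, against 14.2%. The scaffold genes AIMP1, AIMP2 and AIMP3 had no conservative promoter peak, with candidates of 63.9, 37.6 and 27.8. Neither had crc, the Drosophila ATF4 gene, with a candidate of 40.6, or Slimp, a paralog of the mitochondrial serine enzyme, with 19.6.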

How the data were processed

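ChIP-seq peak lists of 2 samples of 1 group were analysed, with the replicate numbers of the labels. The lists are on dm6, per the file listings, and the labels name a possible control experiment, which was not analysed here. Neither the aligner nor the peak caller is given. The deposited score follows the IDR. The peak signal is the signal value that the authors gave each peak in each deposited list. The deposited −log10 columns hold q-values and IDR values. Pooled values have no error of their own, and read depth is unknown because the lists hold no counts. A further 16 columns of the ranked lists that hold values of the compared sets were not used.

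Gene models and start sites came from Ensembl release 115 (BDGP6) and sequence from the RefSeq copy of the assembly, whose chromosomes no peak overran. The signal of a sample at a conservative peak is the highest among its ranked-list peaks overlapping that peak by at least 1 bp. At other genes it is the highest within 500 bp. Python 3.11.15, pandas 2.3.3, NumPy 2.4.6, SciPy 1.17.1 and matplotlib 3.10.9 were used, and the promoter assignment was checked on simulated data. Shares were described beside all protein-coding genes, and no test was made. The members and the lists were chosen with earlier results of these data known. All members are named, with all values for those with a conservative promoter peak, the 4 highest candidates of the others in each class, the neighbours at shared peaks, and up to 4 of the other tRNA-related genes. To these last, Gcn2, mEFTu1, mEFTu2, the AIMP genes, crc and Slimp were added after their values were seen. Alternatives were other lists, thresholds, promoter windows and word windows.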

Additional observations from a re-analysis of the deposited data

How the results depend on the processing

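The count of 11 synthetase genes stayed within 1.5 times under 7 of 8 alternatives and fell to 7 with the 2903 strongest peaks. The cytoplasmic count (9) and that of the other tRNA-related genes (5) stayed within 1.5 times under all 8. The mitochondrial count of 2 fell to 1 in the other series-level list and among the strongest peaks, and lay between 0 (without replicate 2) and 1 (without replicate 1) when a sample was left out. The median signal of 103 moved to 154.9 among the strongest peaks and to 96.9 with a window of 250 bp, where ValRS counts by its nearer peak (88.7), and lay between 54.3 and 69.3 in a single sample, whose signals are not pooled. Mean G+C of the members' summits was 32.6% with windows of 25 bp and 34.0% with 100 bp. With 25 bp, GAGAG and TATTTTAA were at 0 summits, and with 100 bp TATCGATA was at 1 and GGTCACAC at 2. No paired analysis was possible because the samples form 1 group. With 15 mitochondrial genes, 1 gene moves the share by 6.67 percentage points, and the missing read depth leaves the precision of each signal unknown.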

Other observations

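The cytoplasmic enzymes were also grouped by catalytic fold and by complex, a grouping made after their values had been seen. The values over all protein-coding genes were 20.1% with a promoter peak and a median highest candidate signal of 26.9. Among enzymes of class I, which share a Rossmann fold, 3 of 9 genes had a conservative promoter peak (ArgRS, IleRS and ValRS) and the median highest candidate signal was 31.0. Among those of class II, which share an antiparallel beta-sheet fold, 5 of 10 had one (AlaRS, AsnRS, AspRS, SerRS and ThrRS) and the median was 55.0. GluProRS joins an enzyme of each class. Of 8 genes for enzymes that belong to the multi-synthetase complex in mammalian cells, 4 had a peak (ArgRS, AspRS, GluProRS and IleRS), with a median of 41.5, and GlnRS, LeuRS, LysRS and MetRS had none. Of the 12 cytoplasmic genes outside the complex, 5 had a peak, with a median of 53.7. The groups are small, and none of these differences was tested.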
